A study of Mus musculus with 12 samples.

Results

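Organoids grown with Treg cells under an IFNg-blocking antibody were compared with organoids that received an antibody to the IL-10 receptor (IL-10R) in addition. The comparison rested on 4140 epithelial cells of 11911 kept in all 6 conditions, of which 2120 were from Treg + aIFNg and 2020 from Treg + aIFNg + aIL10R. The members were the cells of 5 libraries that carried either hashtag as a single call, and passed limits of 10000 to 90000 unique molecular identifiers (UMIs) and 3000 to 10000 genes, with no more than 8.5% of UMIs from mitochondrial genes. These limits kept 50.2% of the 4219 Treg + aIFNg singlets and 52.0% of the 3886 Treg + aIFNg + aIL10R singlets.

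Small intestinal organoids of BALB/c mice, which are cultured epithelial structures with a crypt-like organisation, shared a well for 4 days with 100000 allogeneic CD25high Treg cells, 30 U/ml IL-2 and CD3/CD28 beads, in plates tilted to keep organoids and Treg cells apart. Both groups compared received anti-IFNg at 10 µg/ml from the onset of co-culture, and Treg + aIFNg + aIL10R also received anti-IL-10R (CD210) at 10 µg/ml. The other conditions were organoids alone (Ctrl), Treg cells without antibody (Treg), Treg cells with anti-IL-10R alone (Treg + aIL10R), and organoids without Treg cells that were given recombinant IFNg at 0.25 ng/ml and IL-10 at 10 ng/ml (cytokine-treated). Live EpCAM+ cells of the 6 conditions were hashtagged and pooled in each of 3 replicates, so that both groups shared their libraries within a replicate. As only EpCAM+ cells were sequenced, the Treg cells, on which either antibody could also act, were not measured, and none of the 6 conditions was an isotype control.

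IL-10 is a cytokine of regulatory lymphocytes and macrophages that binds a receptor made of a ligand-binding chain, encoded by Il10ra, and a shared chain, encoded by Il10rb, and signals mainly through Jak1, Tyk2 and Stat3. Stat3 induces feedback and epithelial defence genes such as Socs3, Bcl3 and the antimicrobial lectins of the Reg3 family. IFNg signals through its own receptor and the kinases Jak1 and Jak2, and induces Irf1, guanylate-binding proteins, the immunoproteasome and antigen presentation by major histocompatibility complex (MHC) class I and II. The comparison asks whether blocking the IL-10 receptor alters the epithelium when IFNg is already blocked.

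The hashtags that assigned each cell to its group, and the promoters of 2 genes read below, Irf1 as an IFNg target and Socs3 as a Stat3 target, are shown because the comparison rests on them. Each hashtag is an oligonucleotide of 15 bases on an antibody, and each promoter runs from 250 bases before to 50 bases after the start site in RefSeq (GRCm38.p6). Capitals mark the letters TTCNNNGAA, the core that Stat factors are known to bind, which reads the same on both strands.
Hashtag 3, Treg + aIFNg: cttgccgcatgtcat
Hashtag 5, Treg + aIFNg + aIL10R: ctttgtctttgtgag
Irf1, chr11:53769764-53770063, + strand: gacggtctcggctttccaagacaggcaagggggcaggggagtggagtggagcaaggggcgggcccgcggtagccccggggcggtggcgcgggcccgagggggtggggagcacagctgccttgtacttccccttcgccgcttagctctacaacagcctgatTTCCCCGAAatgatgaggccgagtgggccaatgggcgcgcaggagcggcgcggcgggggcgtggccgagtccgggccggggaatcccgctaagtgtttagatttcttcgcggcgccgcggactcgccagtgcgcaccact
Socs3, chr11:117969317-117969616, - strand: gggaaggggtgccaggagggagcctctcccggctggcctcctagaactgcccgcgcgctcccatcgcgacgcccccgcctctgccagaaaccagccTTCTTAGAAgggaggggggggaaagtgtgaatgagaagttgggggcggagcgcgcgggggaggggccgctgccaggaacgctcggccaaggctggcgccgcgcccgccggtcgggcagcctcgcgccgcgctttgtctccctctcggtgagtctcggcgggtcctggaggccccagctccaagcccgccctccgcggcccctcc
The 9 letters occurred in 2726 of 32851 promoters of this length (8.30%), so a match describes the sequence and does not mark a bound site.

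The groups did not differ in depth beyond the spread between replicates. The 5 libraries held 5387 to 7995 barcodes and 128917456 to 223155304 UMIs, and pairs of libraries shared 9 to 24 barcodes. The median UMIs per cell were 46940.5, 43305 and 44099 in Treg + aIFNg and 45017, 42289.5 and 45974.5 in Treg + aIFNg + aIL10R, replicates 1 to 3 (two-sided exact permutation test, p = 0.8). The mitochondrial share was 4.00% ± 0.070 and 4.03% ± 0.13 (SD, n = 3; exact permutation test, p = 0.8). With 3 replicates a group this test cannot go below 0.1, and the sign-flip test within replicates cannot go below 0.25. All 4140 cells held UMIs of Epcam, the gene of the sorted surface protein.

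RNA for the ligand-binding chain of the IL-10 receptor was not detected in these cells. Il10ra (chr9:45253837-45269149) had 0 UMIs in 4140 cells and 187296175 UMIs, which allows at most 0.0725% of cells with a UMI and 0.0160 CPM (UMIs scaled to a fixed library total), a limit set by 3 counts that covers counting error only. It also had 0 UMIs in the 3965 barcodes of both hashtags outside the limits. In the 11911 cells of all conditions it had 2 UMIs, both in Treg + aIL10R replicate 3. That sum also held T cell RNA, with 43 UMIs of the leukocyte gene Ptprc in 3 cells. Il10rb, the chain shared with the receptors of IL-22 and interferon lambda, had 4693 UMIs.

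Il10rb stood at 22.3, 25.9 and 27.2 CPM in Treg + aIFNg and at 21.4, 24.7 and 29.7 CPM in Treg + aIFNg + aIL10R. The groups overlapped, and the 95% interval of the log2 fold change (Treg + aIFNg + aIL10R relative to Treg + aIFNg, as throughout) ran from -0.15 to 0.14. Il22ra1, a chain of the IL-22 receptor, stood at 1.64, 1.43 and 0.991 CPM against 1.89, 1.00 and 0.673 CPM. For the IFNg receptor, Ifngr1 stood at 104, 96.1 and 107 CPM against 103, 102 and 120 CPM (log2 fold change 0.08 ± 0.06 SE). Ifngr2 stood at 71.4, 66.1 and 75.0 CPM against 69.5, 68.0 and 75.2 CPM. Of the kinases, Jak1 had a log2 fold change of 0.05 ± 0.05 (SE) and Tyk2 of -0.17 ± 0.09 (SE). Of 16 receptor chains 12 were expressed highly enough to test, and none passed an unadjusted p of 0.05.

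Summed over all cells of a condition and replicate, 0 of 15002 genes tested passed an adjusted p of 0.05 in edgeR's quasi-likelihood test with Benjamini-Hochberg adjustment (0% called), and DESeq2 also called 0. At an unadjusted p below 0.05 there were 322 genes (2.15%), 184 higher and 138 lower, and the groups did not overlap for 426 genes (2.84%). The median log2 fold change of all genes was 0.00, and of the 2891 genes at 50 CPM or more the 95% interval lay within 0.5 of 0 on the log2 scale for 2853 (98.7%). In the same fit, Treg against Ctrl gave 23 genes higher and 0 lower, and the cytokine-treated organoids against Ctrl 2760 higher and 2630 lower. In sums over all cells, fewer cells of a type and less RNA per cell cannot be told apart.

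No Stat3 target passed the threshold. Of the Jak, Stat and feedback genes 27 of 28 were tested, 12 positive and 15 negative with a median log2 fold change of -0.0025, and of the Stat3 response genes 34 of 48, 18 positive and 16 negative with a median of 0.0018. In neither list did a gene have an unadjusted p below 0.05. Stat3 itself stood at 19.2, 15.2 and 14.7 CPM in Treg + aIFNg and at 18.6, 15.3 and 14.4 CPM in Treg + aIFNg + aIL10R, with an interval of the log2 fold change from -0.38 to 0.35. Socs3, the feedback inhibitor whose promoter is printed above, stood at 1.97, 2.29 and 2.23 CPM against 2.29, 2.47 and 2.35 CPM. Its groups touched at 2.29 CPM to the digits printed, and the log2 fold change was 0.14 ± 0.16 (SE), within the error. In the cytokine-treated organoids Stat3 stood at 50.7, 27.6 and 21.2 CPM and Socs3 at 4.58, 3.68 and 3.19 CPM. Those organoids received IFNg and IL-10 together, so the effects of the cytokines cannot be told apart there. The median log2 fold change of the Stat3 response genes was 0.09 for cytokines against Ctrl.

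Bcl3, a Stat3-responsive cofactor of NF-kB, stood at 9.14, 8.01 and 9.11 CPM against 9.50, 9.76 and 8.19 CPM. Reg3g, an antimicrobial lectin, stood at 62.1, 17.2 and 35.4 CPM in Treg + aIFNg and at 65.7, 29.1 and 43.6 CPM in Treg + aIFNg + aIL10R. It was higher with both antibodies in each replicate, while the groups overlapped widely, and the log2 fold change was 0.37 with an interval from -0.14 to 0.88. When the fit held the 2 conditions alone, the interval ran from 0.11 to 0.61, with an adjusted p of 0.995 in edgeR's quasi-likelihood test with Benjamini-Hochberg adjustment. Reg3b, its close relative, stood at 13.8, 2.69 and 25.5 CPM against 18.8, 1.27 and 15.2 CPM, and 1 cell held 73.1% of its UMIs in Treg + aIFNg replicate 2 and 61.1% in Treg + aIFNg + aIL10R replicate 1. Bcl6, a transcriptional repressor, had a log2 fold change of 0.20 ± 0.10 (SE) and Saa3, an acute-phase protein, of -0.64 ± 0.38 (SE).

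**Figure D1:**
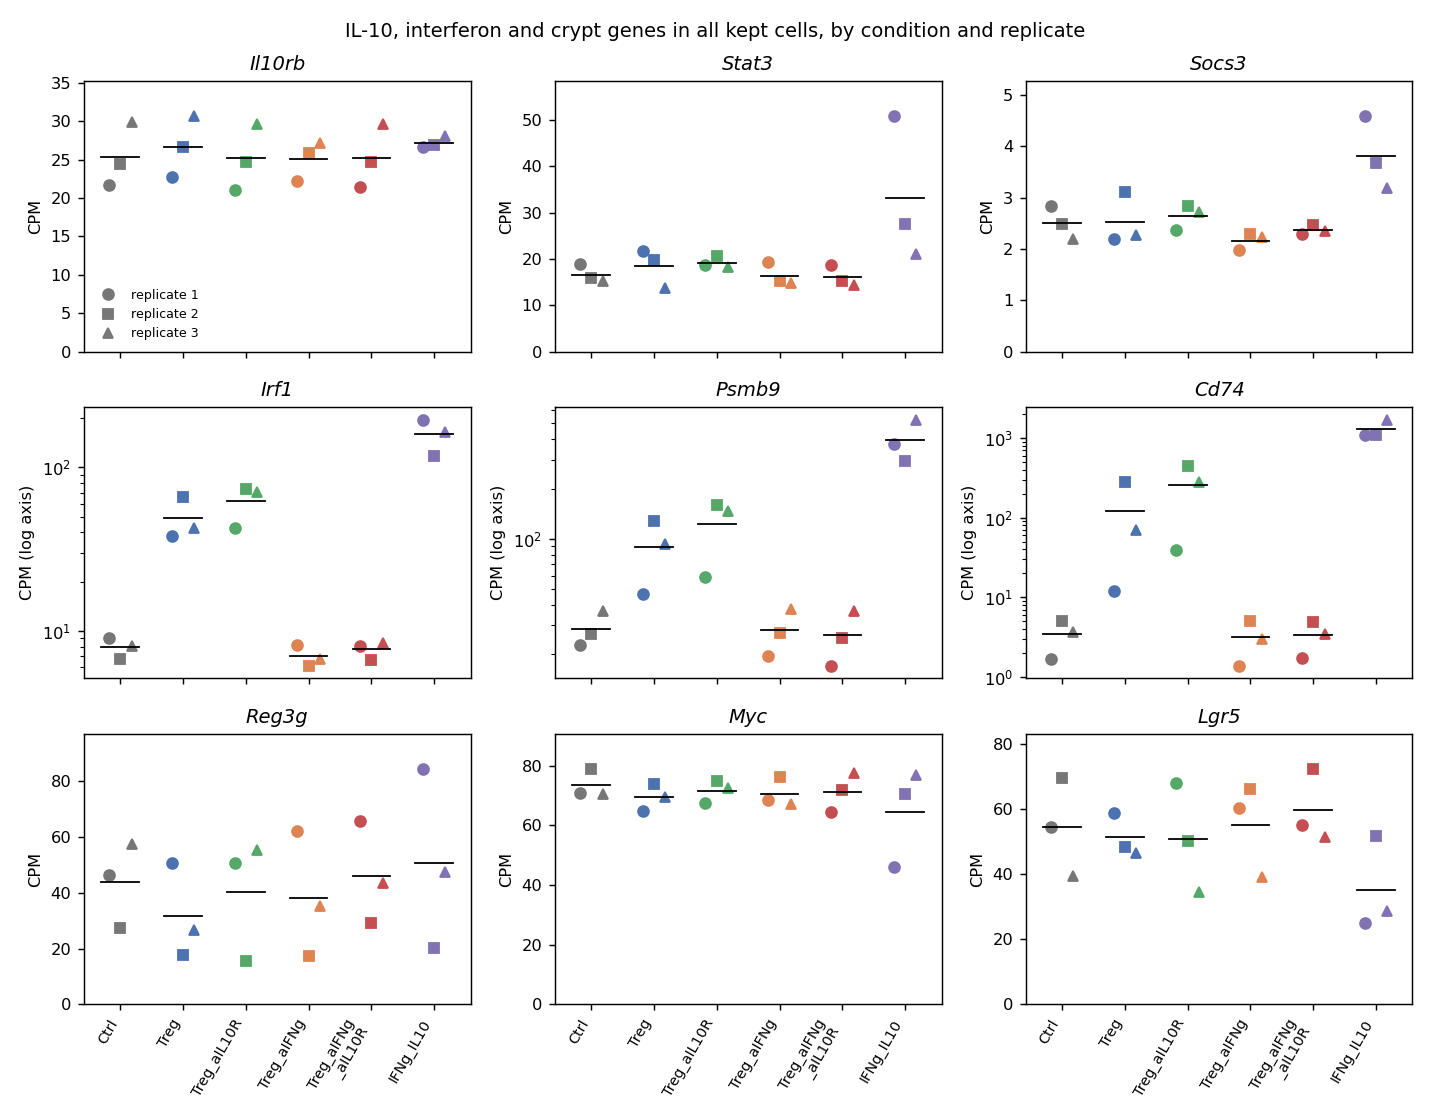
CPM of 9 genes (y axis, logarithmic in the middle row) in the 6 conditions (x axis), 1 point per replicate and a line at the mean. Cd74 and Irf1 stood in the same range in Treg + aIFNg and Treg + aIFNg + aIL10R, and the cytokine-treated organoids reached 1705 CPM for Cd74 and 195 CPM for Irf1.

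No interferon gene differed between the groups past the threshold. Of 59 genes of the IFNg response 54 were tested, 30 positive and 24 negative, and the median log2 fold change was 0.01. The only one at an unadjusted p below 0.05 was Apol9a, an interferon-induced apolipoprotein L, at 0.0779, 0.0679 and 0 CPM against 0, 0 and 0 CPM, which is too few UMIs for a fold. Their summed level was 854, 854 and 952 CPM in Treg + aIFNg and 851, 867.9 and 961 CPM in Treg + aIFNg + aIL10R, beside 909, 879 and 985 CPM in Ctrl and 5029, 3022 and 4625 CPM after cytokines. Against the shared Ctrl samples, the median of the list was -0.03 for Treg + aIFNg + aIL10R, 0.79 for Treg and 3.19 for cytokines.

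Irf1, a transcription factor induced by IFNg, stood at 8.18, 6.13 and 6.75 CPM against 8.05, 6.62 and 8.47 CPM (log2 fold change 0.12, interval -0.53 to 0.76). Psmb9, a subunit of the immunoproteasome, stood at 19.4, 26.9 and 37.5 CPM against 17.1, 25.1 and 36.8 CPM, lower in each replicate with a log2 fold change of -0.10 ± 0.27 (SE). In the fit of 6 conditions these differences were smaller than their errors. Psmb8, its partner subunit, had a log2 fold change of -0.14 ± 0.45 (SE), and Socs1, a feedback inhibitor of Jak kinases, of 0.10 ± 0.59 (SE). Igtp, an immunity-related GTPase, stood at 0.857, 0.498 and 0.744 CPM against 0.447, 0.515 and 0.897 CPM. Gbp2, a guanylate-binding protein, was at or near 0 in all 6 sums, at most 0.124 CPM, which is too few UMIs for a fold.

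For antigen presentation, none of 27 MHC class I genes and none of the 11 of 14 MHC class II genes tested had an unadjusted p below 0.05, with medians of 0.0043 and 0.03. B2m, the light chain of MHC class I, stood at 205, 204 and 241 CPM against 214, 215 and 235 CPM, with an interval from -0.28 to 0.35. Cd74, the invariant chain of MHC class II, stood at 1.38, 5.07 and 2.97 CPM against 1.71, 4.93 and 3.48 CPM. It followed the replicate more than the antibody, and Ctrl stood at 1.65, 5.09 and 3.64 CPM. H2-Aa, a class II chain, stood at 0.363, 0.792 and 0.929 CPM against 0.5, 0.868 and 0.897 CPM. The 6-condition fit shares its spread with conditions in which these genes varied widely, and with the 2 conditions alone the interval of B2m ran from -0.04 to 0.11 and that of Irf1 from -0.10 to 0.32. Of 26 type I and III interferon genes tested 1 had an unadjusted p below 0.05, the RNA sensor Ddx58, at 4.15, 1.81 and 2.11 CPM against 4.95, 2.63 and 2.80 CPM (log2 fold change 0.38 ± 0.16 SE).

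**Figure D2:**
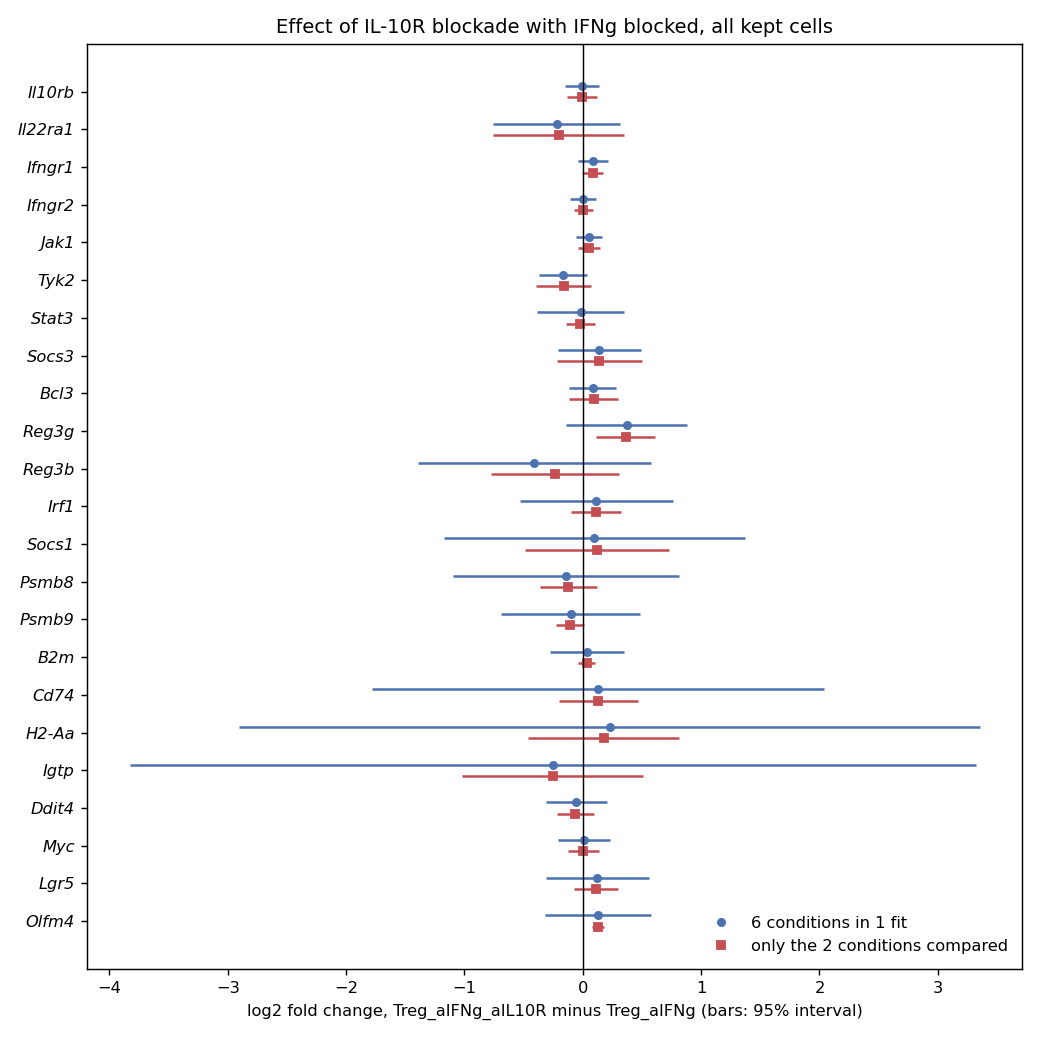
Log2 fold change of Treg + aIFNg + aIL10R against Treg + aIFNg (x axis) for 23 genes (y axis), with 95% intervals from the fit of 6 conditions (circles) and of 2 conditions (squares). The intervals of Irf1, Cd74 and B2m were narrower in the fit of 2 conditions and included 0 in both.

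Among growth genes, the S phase list leaned lower without a gene past the threshold. Of its 37 genes 34 were negative and 3 positive, with a median log2 fold change of -0.06, and 4 had an unadjusted p below 0.05, all lower, beside 2.15% of all genes. Its summed level was 1469, 1617 and 1637 CPM against 1394, 1500 and 1632 CPM, so that replicate 3 hardly differed. Without replicate 2 the negative genes were 25 of 37 and the median was -0.03. Within a cluster of cells led by the S phase genes Ccne2 and Rrm2 the list leaned the other way. There 23 of 37 were positive, with a median of 0.047. In the other classes tested, defined below, most were negative. These were 31 of 37 in TA-like cells (median -0.08) and 25 of 37 in ISC-like cells (median -0.06). The same held for 27 of 33 in EP-like cells, 21 of 29 in goblet/Paneth-like cells and 7 of 13 in enterocyte-like cells. As 22 of the 37 genes helped assign cells to classes, level and assignment are not independent within them. Rrm2, the regulated subunit of ribonucleotide reductase, stood at 51.8, 73.9 and 79.6 CPM against 41.6, 61.8 and 76.3 CPM, lower in each replicate (log2 fold change -0.21 ± 0.055 SE). Ccne1, the cyclin of S phase entry, stood at 16.8, 18.7 and 21.0 CPM against 15.4, 15.5 and 18.2 CPM (log2 fold change -0.20 ± 0.06 SE). The 40 genes of G2 and M phase were 21 positive and 19 negative, with a median of 0.00091.

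Myc, a driver of crypt growth, stood at 68.4, 76.1 and 67.3 CPM against 64.5, 71.95 and 77.5 CPM. Ddit4, an mTORC1 inhibitor, had an interval from -0.31 to 0.20. Of 77 mTORC1 genes 53 were negative and of 77 Myc targets 52, both with medians of -0.02. In these lists 2 and 1 genes had an unadjusted p below 0.05, beside 2.15% of all genes. Of the crypt stem cell genes 28 of 29 were tested, 20 positive and 8 negative, and 0 had an unadjusted p below 0.05. Lgr5, the receptor that marks intestinal stem cells, stood at 60.4, 66.2 and 39.2 CPM against 55.1, 72.4 and 51.5 CPM, with an interval from -0.31 to 0.56. Olfm4, a secreted marker of the same cells, stood at 1046, 949 and 1117 CPM against 1180, 1021 and 1203 CPM, higher in each replicate (log2 fold change 0.13, interval -0.32 to 0.58). That interval came from the fit of 6 conditions, which pools the spread of all of them. Over this fit and 12 alternatives the log2 fold change of Olfm4 stayed between 0.105 and 0.148 and never passed the threshold. The lowest unadjusted p over these fits (edgeR or DESeq2) was 0.000483, and the lowest adjusted p was 0.995.

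In lists of mature cell types a few cells held much of the RNA. The Paneth genes had a median log2 fold change of 0.57 over 22 tested, which was 0.02 without replicate 2 and 1.09 without replicate 3. AY761184, an antimicrobial defensin-like gene whose reads may be shared with related genes, stood at 0.649, 0.611 and 0.496 CPM against 8.87, 20.5 and 4.99 CPM, with no overlap (log2 fold change 4.40 ± 1.30 SE). A single cell held 54.3%, 84.7% and 93.3% of its UMIs in the 3 replicates of Treg + aIFNg + aIL10R, and Ctrl stood at 5.84, 11.7 and 8.45 CPM. The fit of 2 conditions called this gene and no other (log2 fold change 4.37, adjusted p = 0.00102, edgeR quasi-likelihood test with Benjamini-Hochberg adjustment).

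Of the endocrine genes 24 of 32 tested were negative, with a median of -0.17. Gcg, the glucagon precursor, stood at 0.909, 122 and 7.68 CPM against 0.974, 0.515 and 2.13 CPM, and 1 cell held 60.8% of its UMIs in Treg + aIFNg replicate 2. Gip, an incretin hormone, stood at 141, 9.82 and 0.620 CPM against 74.4, 31.5 and 142 CPM, and 1 cell held 99.6% of its UMIs in Treg + aIFNg + aIL10R replicate 3. The goblet and enterocyte lists had medians of 0.10 over 24 and 0.04 over 45 genes. Zg16, a goblet lectin, stood at 202 CPM in Treg + aIFNg replicate 3, 93.6% of it from 1 cell. In the other sums of the groups compared it stood between 13.7 and 40.1 CPM. Fabp6, the ileal bile acid-binding protein, stood at 47.7 CPM in Treg + aIFNg replicate 3, 89.2% of it from 1 cell. It stood at 1.42 to 1.91 CPM in the other sums of these groups.

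Of 16 tuft genes tested 13 were negative, with a median of -0.39, which was 0.02 without replicate 2. Pou2f3, the transcription factor of tuft cells, stood at 3.82, 4.07 and 4.65 CPM against 2.05, 3.25 and 3.42 CPM. Each sum with both antibodies was below each sum with anti-IFNg alone (log2 fold change -0.55 ± 0.18 SE), while Ctrl ranged from 2.45 to 5.57 CPM. The highest cell held 28, 20 and 21 UMIs in Treg + aIFNg and 10, 3 and 3 in Treg + aIFNg + aIL10R. Their part in the difference was not tested.

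**Figure D3:**
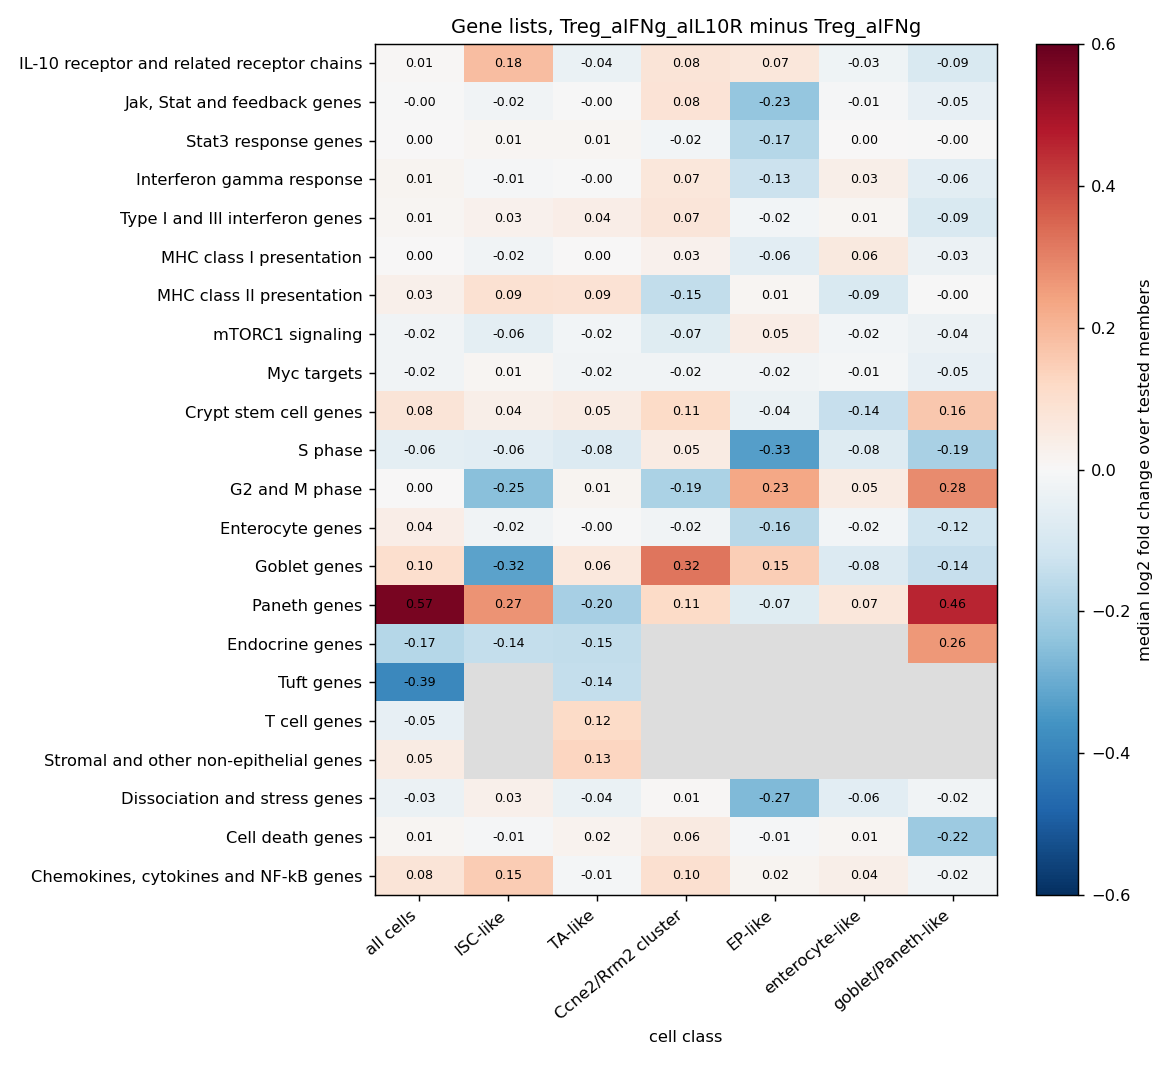
Median log2 fold change (colour) of 22 gene lists (y axis) in all cells and in 6 classes of cells (x axis), with grey where too few genes were tested. The IFNg response stood at 0.01 in all cells, while G2 and M phase stood at -0.25 in ISC-like cells.

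The genes with the smallest p were not past the threshold, with an adjusted p of 1 for each in edgeR's quasi-likelihood test with Benjamini-Hochberg adjustment. On the lower side, Pdk4, a kinase that restrains pyruvate oxidation, stood at 0.415, 0.339 and 1.05 CPM against 0.132, 0.108 and 0.280 CPM (log2 fold change -1.74 ± 0.43 SE). Mycn, a relative of Myc, stood at 0.701, 0.815 and 1.18 CPM against 0.579, 0.380 and 0.449 CPM. Both were weakly expressed, as were Gm26787, Tmem151a and BC049715 with log2 fold changes of -1.43, -2.58 and -0.89. Arfgap2, a regulator of COPI transport, and the transcript Gm50340 had log2 fold changes of -0.20 and -0.41.

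On the higher side, Sgsm3, a Rab GTPase-activating protein, stood at 10.6, 11.3 and 11.8 CPM against 13.4, 14.8 and 12.6 CPM (log2 fold change 0.29 ± 0.07 SE). Vamp2, a vesicle fusion protein, stood at 9.30, 9.66 and 10.1 CPM against 10.2, 11.4 and 12.3 CPM. The groups overlapped for neither gene. Nf1, the Ras inhibitor neurofibromin, had a log2 fold change of 0.16 ± 0.05 (SE), Ap1s3 of 0.22 and Snrk of 0.21. The weakly expressed 1500002F19Rik, Slc9a4 and Fbxl13 had log2 fold changes of 1.69, 1.51 and 1.37. Of the chemokine, cytokine and NF-kB genes, 2 of 26 tested had an unadjusted p below 0.05, both positive, beside 2.15% of all genes. These were Nfkbia, the NF-kB inhibitor, at 68.0, 61.0 and 74.04 CPM against 78.2, 72.2 and 73.8 CPM, and Ccl20, a chemokine, at 15.7, 6.02 and 13.1 CPM against 23.5, 10.4 and 12.6 CPM. Neither was higher in replicate 3.

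Cells were then compared within classes built from clusters of Ctrl cells. Clusters were named by markers as like intestinal stem cells (ISC-like), transit-amplifying cells (TA-like), enterocyte precursors (EP-like), enterocytes, and goblet and Paneth cells. A cluster led by the S phase genes Ccne2 and Rrm2 was left unnamed, and the names were given after the clusters had been seen. The EP-like name is weakly based. Precursor markers gave 1 leading gene and a median log2 ratio of 0.73 there, against 2 and 2.33 in the enterocyte-like cluster. In 1 TA-like cluster, of 79 Ctrl cells, ISC markers had a higher median log2 ratio (0.71) than TA markers (0.62). In every other TA-like cluster TA markers had the higher median of these, though only 0.02 in 1 cluster of 167 Ctrl cells. Genes at an unadjusted p below 0.05 made up 3.71% of the 11390 genes tested for ISC-like cells and 2.6% of the 13383 tested for TA-like cells. The share was 5.3% of 10470 genes in the Ccne2/Rrm2 cluster and 4.03% of 9992 genes for EP-like cells. It was 2.84% of 9888 genes for enterocyte-like cells and 3.61% of 7944 genes for goblet/Paneth-like cells. After Benjamini-Hochberg adjustment edgeR called 1 gene in ISC-like cells (0.00878%) and 0 in each of the others (0%).

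The called gene was Ghrl, the precursor of the hormone ghrelin, which fell by 4.08 on the log2 scale with an SE of 0.62 (adjusted p = 0.00817, edgeR quasi-likelihood test with Benjamini-Hochberg adjustment). It had 4, 801 and 7 UMIs in Treg + aIFNg and 6, 24 and 3 in Treg + aIFNg + aIL10R. Of the 801 UMIs 781 (97.5%) came from 1 cell, which held UMIs of 10 of 20 endocrine and 12 of 16 ISC markers. It had been assigned to the ISC-like and not to the endocrine-like class. Without that cell, left out after its values were seen, the log2 fold change was 0.09 with an adjusted p of 1 in the same edgeR test, and without replicate 3 the adjusted p was 0.183.

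The genes of G2 and M phase, which drive mitosis, leaned lower in some classes and higher in others, a difference that was not tested. None passed the threshold in any class tested. In ISC-like cells 38 of 40 were negative, the median log2 fold change was -0.25, and 19 had an unadjusted p below 0.05, all lower, beside 3.71% of all genes. Their summed level was 3275, 3310 and 3455 CPM in Treg + aIFNg and 2979, 3030 and 2743 CPM in Treg + aIFNg + aIL10R, with no overlap, beside 3085, 3073 and 2730 CPM in Ctrl. Mki67, a marker of cycling cells, stood at 143, 109 and 111 CPM against 125, 93.2 and 63.1 CPM, and Cenpe, a kinetochore motor, at 40.7, 24.8 and 21.7 CPM against 24.0, 19.4 and 12.1 CPM, both named after their values were seen. The count of 19 was 9 without replicate 3 and 2 without the replicate block, and the median stayed between -0.28 and -0.17. In the Ccne2/Rrm2 cluster 36 of 40 were negative, with a median of -0.19. The list was mostly positive in the EP-like class, with 24 of 31 genes and a median of 0.23, and in the goblet/Paneth-like class, with 36 of 39 genes and a median of 0.28. In TA-like cells 26 of 40 were positive, with a median of 0.01, and in enterocyte-like cells 12 of 20, with a median of 0.05. As 30 of the 40 genes helped assign cells to classes, the level within the class and the assignment are not independent.

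The other classes tested held no called gene and are described with genes chosen after their values were seen. As 14 of 29 crypt stem cell genes and 11 of 46 enterocyte genes helped assign cells to classes, level and assignment are not independent here either. In the Ccne2/Rrm2 cluster Olfm4 stood at 186, 392 and 309 CPM against 292, 526 and 702 CPM (log2 fold change 0.74, adjusted p = 0.5, edgeR quasi-likelihood test with Benjamini-Hochberg adjustment). There 7 of 26 crypt stem cell genes had an unadjusted p below 0.05, all higher, as did 8 of 40 G2 and M phase genes, all lower, beside 5.3% of all genes in that cluster. The fit of 2 conditions called 33 genes, 16 higher, Olfm4 among them, and 17 lower, Gapdh among them. Of the mTORC1 genes 57 of 77 were negative in that cluster, with a median of -0.07. There 9 had an unadjusted p below 0.05, all lower, beside 5.3% of all genes. In EP-like cells 47 of 76 mTORC1 genes were positive, with a median of 0.05. In EP-like cells 8 of 39 enterocyte genes had an unadjusted p below 0.05, all lower, with a median of -0.16, beside 4.03% of all genes in that class. Their summed level was 11470, 10445 and 21269 CPM against 11267, 9098 and 11626 CPM. Replicate 1 hardly differed, and replicate 3, which rested on 22 and 14 cells in the respective groups, differed most. Fabp2, a fatty acid carrier of enterocytes, stood at 635, 565 and 1135 CPM there against 546, 453 and 603 CPM. In goblet/Paneth-like cells Ffar2, a receptor for short-chain fatty acids, stood at 24.2, 27.6 and 39.0 CPM against 7.26, 8.62 and 13.3 CPM, with no overlap (log2 fold change -1.66, adjusted p = 0.333, same edgeR test).

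With 3 replicates neither exact test of a class share can reach 0.05, so shares are described by their differences within replicates, which shared libraries. ISC-like cells made up 20.4%, 20.8% and 19.0% of cells in Treg + aIFNg and 21.4%, 22.1% and 20.5% in Treg + aIFNg + aIL10R, higher in 3 of 3 replicates by 1.29 percentage points ± 0.23 (SD of the differences, n = 3; exact permutation test, p = 0.2, adjusted 0.8 over 8 classes). The Ccne2/Rrm2 cluster made up 8.70%, 11.3% and 12.2% against 7.10%, 9.72% and 10.5%, lower in 3 of 3 by 1.63 points on average. The SD of the differences was 0.075 points (exact permutation test, p = 0.4, and exact sign-flip test, p = 0.25, the smallest it allows). These shares rested on 64, 113 and 47 cells against 53, 84 and 43. An SD from 3 differences is poorly known, and the counting error of such cell numbers was not estimated. A small SD, here or for ISC-like cells, therefore does not show a precise difference. Enterocyte-like cells made up 8.83%, 7.41% and 10.1% against 10.7%, 9.38% and 10.5%, higher in 3 of 3 (exact permutation test, p = 0.2). EP-like cells made up 7.88%, 6.31% and 5.71% against 7.51%, 6.25% and 3.41%, also lower in 3 of 3 (exact permutation test, p = 0.6). TA-like cells differed by -0.40 points (exact permutation test, p = 0.9). The Dclk1/Neurog3 cluster made up 0.408%, 0.400% and 0.779% against 0.938%, 0.116% and 0.244% (exact permutation test, p = 0.7). Endocrine-like cells made up 0.951%, 1.20% and 2.34% against 0.804%, 1.62% and 1.22% (exact permutation test, p = 0.7).

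**Figure D4:**
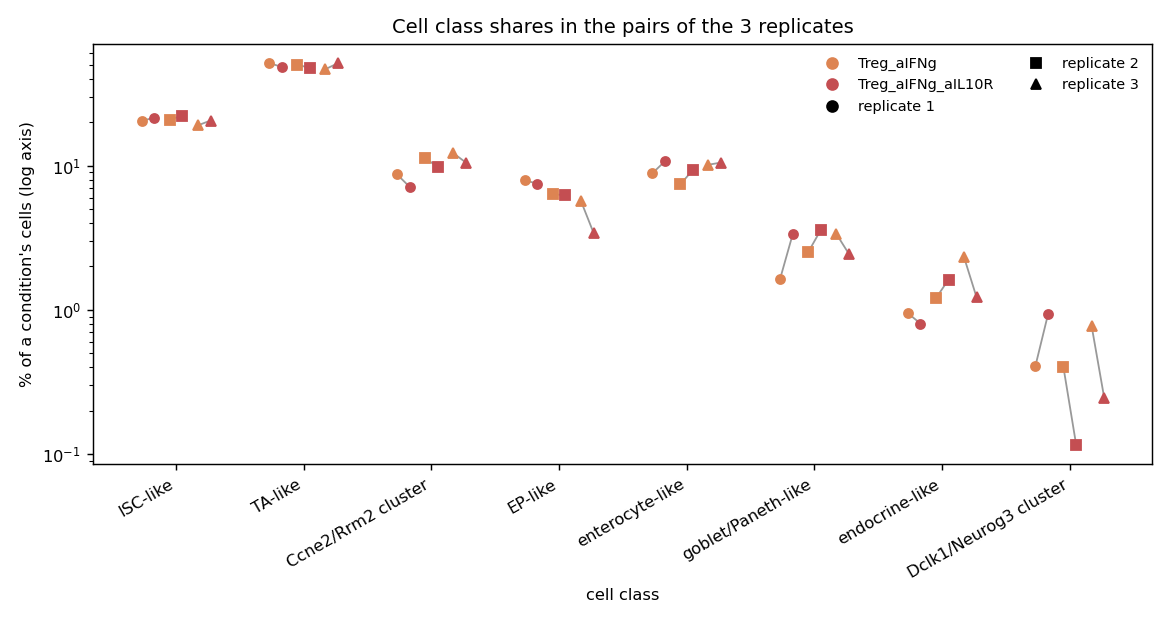
Share of cells in each class (y axis, per cent on a logarithmic scale) by class (x axis), with a line joining the conditions of a replicate. The Ccne2/Rrm2 cluster was lower and the ISC-like class higher with both antibodies in 3 of 3 replicates.

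Few cells in either group stood above the interferon level of organoids alone. For each cell the UMIs of the IFNg response and MHC class II lists were summed after thinning to 10000 UMIs, and cells above the 99th percentile of the Ctrl cells of their replicate were counted. They made up 0.136%, 1.20% and 0.519% of Treg + aIFNg and 0.134%, 1.74% and 0.976% of Treg + aIFNg + aIL10R, a difference of 0.33 points ± 0.29 (SD of the differences, n = 3; exact permutation test, p = 0.7). Without thinning the shares were 0.272%, 0.200% and 0.260% against 0%, 0.926% and 0.732%. With IFNg not blocked, they were 5.39%, 52.7% and 16.4% in Treg and 11.9%, 69.4% and 45.8% in Treg + aIL10R. The difference of the IL-10R effects, with IFNg blocked minus not blocked, was -17.2 points, negative in 3 of 3 replicates. For it the exact permutation test gave p = 0.1, the smallest it allows, and the exact sign-flip test p = 0.25. Without and with anti-IL-10R the means were 0.619% and 0.949% under IFNg blockade, and 24.8% and 42.4% with IFNg not blocked. As the blocked groups stood near the level that the percentile fixes for Ctrl cells, the sign in points follows largely from these levels. Ratios were not tested.

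**Figure D5:**
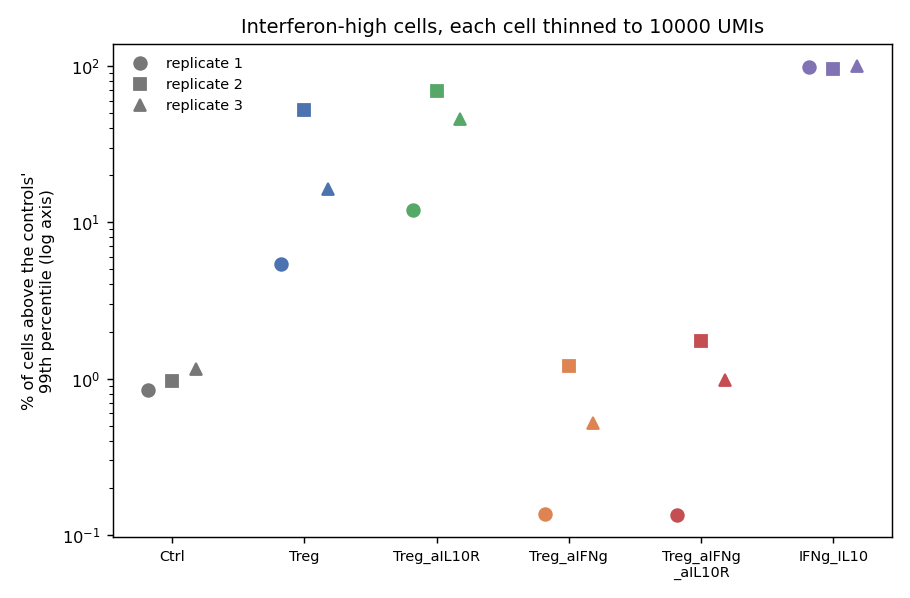
Share of cells above the 99th percentile of Ctrl cells for interferon genes (y axis, per cent on a logarithmic scale) in the 6 conditions (x axis), 1 point per replicate. Treg + aIFNg and Treg + aIFNg + aIL10R stayed at or below 1.74%, while Treg reached 52.7% and Treg + aIL10R 69.4%.

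By gene, the IL-10R effect under IFNg blockade was compared with the effect without it. In all cells 0 of 15002 genes passed the test of this difference (0% called), and 295 had an unadjusted p below 0.05 (1.97%). Treg + aIL10R against Treg on its own called 0 genes, with 293 at an unadjusted p below 0.05. Rrm2 had a difference of effects of -0.26 and Slc9a4, a sodium-proton exchanger, of 2.59, neither past the threshold.

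RNA of T cells was scarce in both groups. The T cell markers summed to 111, 126 and 49 UMIs in Treg + aIFNg and 78, 94 and 44 in Treg + aIFNg + aIL10R. In Ctrl, which held no Treg cells, they summed to 85, 109 and 43. Over the 3 replicates, Ptprc had 0 and 1 UMIs and Cd3e 2 and 0 in the respective groups, both defining markers. Ctla4 made up 189 and 144 of the totals of 286 and 216. Cells with 3 or more marker UMIs numbered 5 and 1. Of 34 T cell genes 8 were tested, and 0 had an unadjusted p below 0.05. Treg + aIL10R, which entered the difference of effects, held 83, 441 and 436 T cell marker UMIs in replicates 1 to 3.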

How the data were processed

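Single-cell RNA and hashtag libraries of mouse organoid cells were used as deposited: raw UMI counts per gene and hashtag, which the authors made with Cell Ranger 7.0.0 on mm10 and, per the submitters' processing notes, handled with Seurat 4.0.5. Libraries B1 and B2, B3 and B4, and B5 formed replicates 1, 2 and 3; the sixth library, excluded by the authors, was not used here. Cells were assigned with HTODemux (Seurat 5.3.0, positive quantile 0.99), which removes doublets between hashtags only. Ctrl cells were clustered with scanpy 1.11.5 (3000 variable genes, 30 components, 20 neighbours, resolution 1). Cells joined classes by rank correlation with the mean profiles of the clusters, over 366 genes without interferon or antigen presentation genes. Ctrl cells of a replicate left out of these profiles regained their class in 85.35% to 87.54%. The clusters and the 366 genes came from all Ctrl cells, so this share is not fully out of sample. It does not cover cells of the other conditions.

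UMI counts were summed per condition, replicate and class (at least 10 cells each) and tested with edgeR 4.0.16 (quasi-likelihood, TMM, filterByExpr, replicate as a block, 6 conditions in 1 fit) with Benjamini-Hochberg adjustment at 0.05; CPM use TMM-scaled totals. The block follows from shared libraries: samples of a replicate deviated together (correlation 0.864, 0.641 and 0.762 in all cells). The replicates came from 3 independent experiments according to the paper. With the replicate as a block, edgeR p-values and intervals measure how differences between conditions varied among replicates, pooled over the conditions in the fit. Limits of detection cover counting error only. Scripts were tested on simulated data. Gene coordinates are from GENCODE vM21 (GRCm38).

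The members and the gene lists, written from memory, were chosen with earlier results of these data known. Genes were named by rule: a fixed set of pathway genes, the 8 smallest p per direction with the same sign in 3 replicates, the 2 smallest p of lists, and called genes; others are marked as chosen after their values were seen. Alternatives were DESeq2 1.42.0, other normalization, filters, samples, hashtag and cell limits, and leaving out a replicate or the cells with the highest Scrublet scores. Scrublet separated the known hashtag doublets poorly, with an area under the curve of 0.50 in library B3 and 0.598 to 0.726 in the others. One gene of the fixed set is not reported here.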

Additional observations from a re-analysis of the deposited data

Results flagged for a closer look

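In TA-like cells the difference of the IL-10R effects, with IFNg blocked minus not blocked, passed the threshold for 4930550C14Rik (chr9:53402325-53434402), at -4.79 ± 0.70 (SE) on the log2 scale (adjusted p = 0.0291, edgeR quasi-likelihood test with Benjamini-Hochberg adjustment). It was noted because an effect differed between conditions with and without IFNg blockade. The log2 fold change was -2.82 with IFNg blocked and 1.97 without. The gene had 25, 45 and 1 UMIs in Treg + aIFNg and 5, 2 and 1 in Treg + aIFNg + aIL10R, beside 6, 5 and 2 in Treg and 22, 32 and 2 in Treg + aIL10R. A single cell held 18 of the 25 and 28 of the 45 UMIs in replicates 1 and 2 of Treg + aIFNg, and 17 of the 22 and 27 of the 32 in those of Treg + aIL10R. The part of these cells in the difference was not tested. Groups of 3 replicates were not tested for stray samples.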

How the results depend on the processing

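Of 94 recomputed values of the 8 gene counts, 74 stayed within 1.5 times the reported count and 20 did not; the difference of effects stayed at 0 throughout in all cells. With the 2 conditions alone, calls were 1 in all cells, 4 in ISC-like, 2 in TA-like, 33 in the Ccne2/Rrm2 cluster and 1 in goblet/Paneth-like cells. Without the filter on low counts they were 34 in ISC-like, 13 in TA-like, 48 in the Ccne2/Rrm2 cluster, 23 among EP-like cells, 21 among enterocyte-like cells and 24 for the goblet/Paneth-like class. The single ISC-like call, Ghrl, became 0 with DESeq2, without the replicate block, with equal cell numbers, with the stricter hashtag quantile, without the cells with the highest Scrublet scores (likely doublets) and, added after seeing the data, without 1 cell. Leaving out a replicate gave 0 to 1 calls for the ISC-like and EP-like classes and 0 to 2 for the goblet/Paneth-like class. Ghrl turned to 0.40 with the stricter hashtag quantile, 0.077 without likely doublets and 0.088 without that cell, and the no-block value was -4.25. The ISC-like share difference was 0.597 points with the stricter quantile and 1.53 without likely doublets, and that of the Ccne2/Rrm2 cluster -1.76 without likely doublets. Scrublet did not separate known doublets in library B3, which held that cell (area under the curve 0.50). Of 41 genes named in all cells by the fixed set or by the smallest p, 32 kept their sign in every alternative that tested them and 9 did not. Gbp2 with its few UMIs was among the latter. All 9 belonged to the fixed set. The genes with the smallest p were picked for the same sign in 3 replicates, so their kept signs follow largely from that choice. Genes named only through lists were not followed over the alternatives in this way. Goblet/Paneth-like cells were not refitted with the stricter quantile or without likely doublets, as sums fell to 6 and 8 cells. Causes were not tested. In goblet/Paneth-like cells 16.9% of genes had an interval within 0.5 on the log2 scale, against 67.3% in all cells, so small differences there were not detectable.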

Other observations

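Stress and cell death genes gave no called gene in all cells. Of 24 dissociation and stress genes tested 17 were negative, with a median log2 fold change of -0.03, and of 38 cell death genes 22 were positive, with a median of 0.01. In edgeR's test 0 genes of either list had an unadjusted p below 0.05. Ddit3, a transcription factor of the integrated stress response, stood at 6.88, 8.62 and 11.2 CPM in Treg + aIFNg and at 5.40, 7.81 and 7.85 CPM in Treg + aIFNg + aIL10R. Diablo, an antagonist of apoptosis inhibitors, stood at 22.4, 26.5 and 30.0 CPM against 20.6, 24.9 and 28.8 CPM, lower in each replicate with overlapping groups. Of 22 stromal and other non-epithelial genes 7 were tested, and 0 had an unadjusted p below 0.05.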
